A study of Mus musculus with 6 samples.

Results

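The genes described here are the matrix metalloproteinases (MMPs), the ADAM and ADAMTS proteases and the tissue inhibitors of metalloproteinases (TIMPs). They were taken as every probe, controls aside, whose gene name on the array began with Mmp, Timp, Adam or Adamts followed by a digit. This gave 108 probes of 78 genes, among 55681 probes naming 36095 targets. Of the genes, 23 were MMPs, 4 TIMPs, 32 ADAMs and 19 ADAMTS proteases. Expression was measured in back skin of male C57BL/6 mice aged 6 to 8 weeks, with 3 mice in each of 2 groups. All backs were shaved, and 2 days later the UVB group began to receive ultraviolet B light (UVB) at 180 mJ/cm2, 3 times a week for 2 weeks, under anaesthesia. The control group was kept dark and received no UVB, and the labels mention no anaesthesia for it. RNA of each mouse was read on 1 Agilent mouse array in 1 colour, so each array stands for 1 mouse. How long after the last exposure the skin was taken is not stated in the labels.

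MMPs are secreted or membrane-bound zinc proteases that are made as inactive precursors and cut collagens, laminins, proteoglycans and one another. TIMPs occupy the active site of MMPs and of some ADAMs. ADAMs are membrane proteins, many of which release the outer part of growth factors, cytokines and receptors from the cell surface, while the secreted ADAMTS proteases cut proteoglycans and trim procollagens. In skin, keratinocytes, fibroblasts and leukocytes make these proteins, and ultraviolet light is known to raise interstitial collagenase and stromelysin-1 through the transcription factor AP-1.

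Values are log2 of the scanner's processed signal minus log2 of the array's 75th percentile, so that 0 is that percentile and a difference of 1 is 2-fold. Fold changes on the log2 scale are UVB minus control, with limma's standard error, and a gene passed at a Benjamini-Hochberg adjusted p under 0.05 over all 24354 targets tested. Between 54.9% and 63.3% of spots lay well above background per array, no member probe was saturated, and the 75th percentile signal was 363, 519 and 484 for controls 1 to 3 and 352, 315 and 302 for UVB 1 to 3. Testing a gene required a probe that stood well above background in 3 or more of the 6 arrays, which held for 48 of the 78 members. Of these, 34 were well above background on all 6 arrays. Arrays of 1 group correlated at r of 0.980 to 0.991 over tested targets and arrays of different groups at 0.953 to 0.972. The files hold bulk skin, in which fewer cells of a type and less RNA per cell cannot be told apart.

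Among the 48 tested members 5 genes rose and 5 fell. Mmp11, Mmp23, Adam19, Adamts1 and Adamts5 were higher after UVB, by 1.84-fold (Adam19) to 2.81-fold (Mmp11). Mmp3, Mmp9, Mmp15, Adam3 and Adam12 were lower, by 1.63-fold (Adam12) to 5.53-fold (Mmp9). The 10 genes are 20.8% of the tested members, where 12.6% of all targets were called, 5.55% higher and 7.01% lower. The median change of the tested members was -0.02, with 24 positive and 24 negative, beside -0.04 over all targets. The 3 UVB arrays lay wholly above or below the 3 control arrays in 18 of the 48 members (37.5%), close to the 38.5% of all targets that did so, with 10 above (15.9% of all targets) and 8 below (22.6%). Without 1 array the counts fell to between 1 and 3 rises and between 1 and 3 falls: 2 and 3 without control 1, 1 and 1 without control 2, 3 and 3 without control 3, 1 and 1 without UVB 1, 1 and 3 without UVB 2, and 2 and 3 without UVB 3. In those fits 3.53% to 7.83% of all targets were called. With normexp background correction 10 members rose and 6 fell, where 20.7% of all targets were called (10.5% higher and 10.2% lower).

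**Figure D1:**
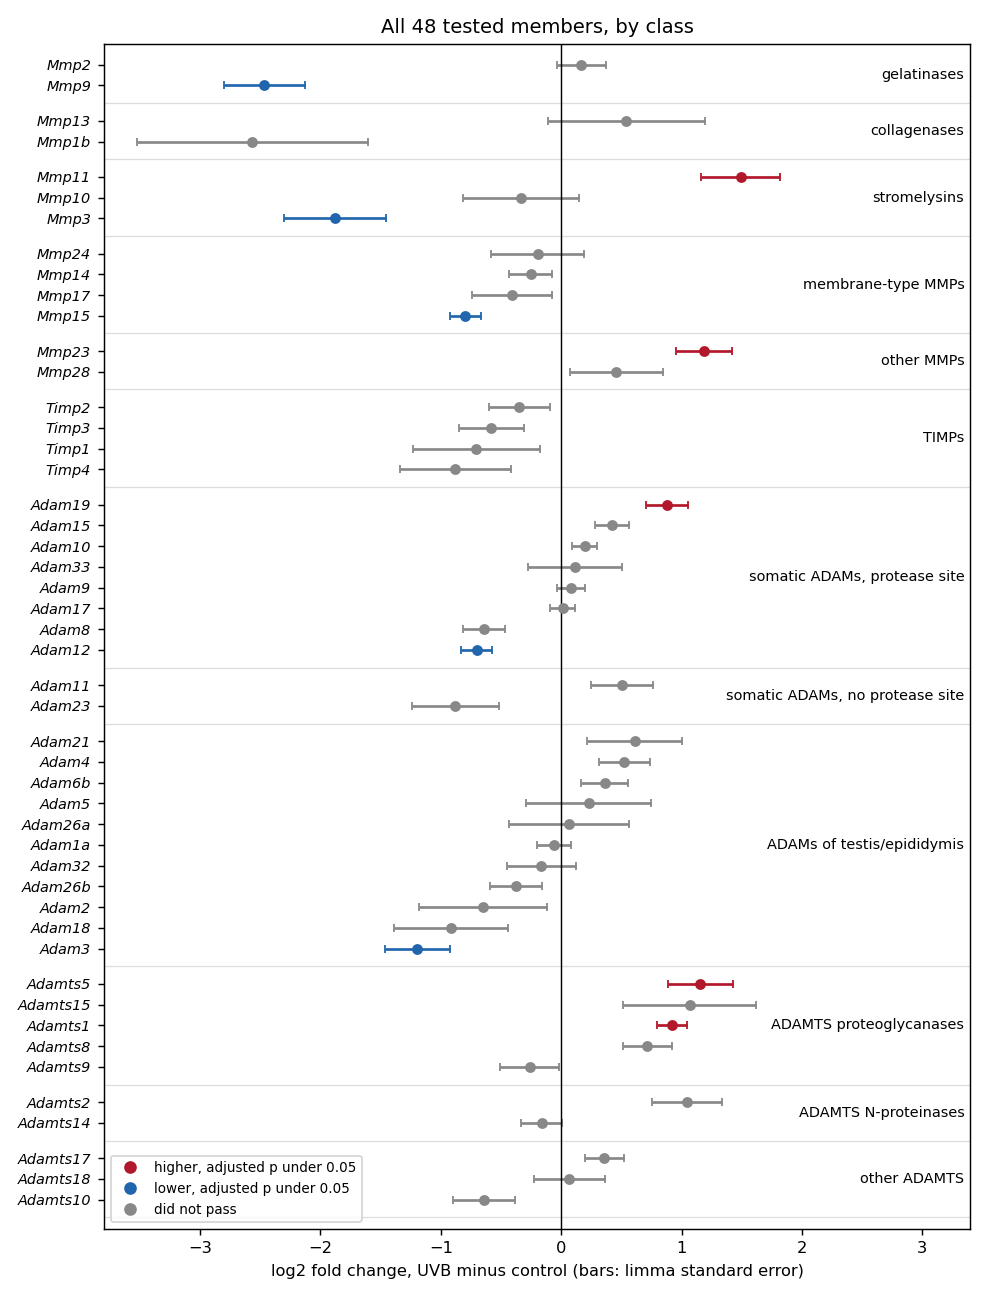
Log2 fold change, UVB minus control (x axis), of the 48 tested members, grouped by class, with bars for limma's standard error. Red points passed the test and were higher (5 genes), blue points passed and were lower (5), and grey points did not pass. All 4 TIMPs lie left of 0 without passing.

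Of the gelatinases, which cut denatured collagen and the type IV collagen of basement membranes, Mmp9 fell and Mmp2 did not pass. Mmp9 (gelatinase B) read -2.30, -2.08 and -2.65 in controls 1 to 3 and -4.61, -5.52 and -4.29 in UVB mice 1 to 3. All 3 UVB arrays were below all controls, and the probe was well above background on the 3 control arrays and on UVB 3 alone. The change was -2.47 ± 0.34 (limma adjusted p = 0.010), or 5.53-fold, read from 10 spots of 1 probe at chr2:164780620-164780679 (mm9). The call held in each of the 6 fits with 1 array left out (adjusted p 0.012 to 0.045). With normexp, which adds a fixed offset of 50 to every signal, the difference was -0.64 and still passed. Mmp2 (gelatinase A) read -0.09, -0.49 and 0.05 in controls and 0.03, 0.24 and -0.30 after UVB, which overlap, with a change of 0.17 ± 0.20 (limma adjusted p = 0.620).

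Most stromelysins and collagenases sit in 1 stretch of chromosome 9. There, 10 MMP genes with 12 probes lie between chr9:7282762-7697700 (mm9, 415 kb from first to last probe), in the order Mmp13, Mmp12, Mmp1b, Mmp3, Mmp1a, Mmp10, Mmp8, Mmp27, Mmp20 and Mmp7. Mmp3, Mmp10, Mmp13 and Mmp1b were tested, and the other 6 were well above background on at most 2 arrays. The bases before the RefSeq starts of 5 of them are shown because these genes shared a pattern across arrays, described after them, and because their promoters share a layout. Capitals mark TGANTCA (N being any base), a pattern that reads the same on both strands and includes the AP-1 site, in which N is G or C. They also mark TATAAA, searched on the gene's own strand. Each line is the 120 bases before the start in GRCm38.p6 (RefSeq), 5′ to 3′ along the gene: Mmp3 at chr9:7445702-7445821 on the plus strand, Mmp10 at chr9:7502222-7502341 (plus), Mmp1a at chr9:7464021-7464140 (plus), Mmp1b at chr9:7388027-7388146 (minus) and Mmp13 at chr9:7272394-7272513 (plus).
Mmp3: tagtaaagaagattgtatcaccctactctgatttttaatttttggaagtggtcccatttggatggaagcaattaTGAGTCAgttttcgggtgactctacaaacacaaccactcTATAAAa
Mmp10: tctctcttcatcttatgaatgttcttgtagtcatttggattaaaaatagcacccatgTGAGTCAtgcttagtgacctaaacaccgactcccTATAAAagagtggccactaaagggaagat
Mmp1a: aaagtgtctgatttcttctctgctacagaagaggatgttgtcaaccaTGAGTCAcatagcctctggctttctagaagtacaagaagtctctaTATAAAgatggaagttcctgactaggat
Mmp1b: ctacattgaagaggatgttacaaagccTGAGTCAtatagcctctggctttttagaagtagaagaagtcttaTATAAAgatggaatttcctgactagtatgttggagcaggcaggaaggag
Mmp13: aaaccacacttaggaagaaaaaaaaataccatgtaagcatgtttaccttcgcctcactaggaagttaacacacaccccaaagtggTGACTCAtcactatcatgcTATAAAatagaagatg

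In 250 bases before the start, TGANTCA occurred in 8 of the 10 chromosome 9 MMP genes and in 3 of the 38 other members with a promoter entry. These counts include Mmp20 and Adam25, where the match was TGAATCA and so not the AP-1 site itself. For all genes too the search took any base as N. TGANTCA occurred in 7.82% of all 27025 genes with an entry, and in 6.75% of all 32851 promoters of that length, since some genes have several. TATAAA occurred in 7 of the 10 and in 3 of the 38, against 8.94% of all genes and 7.59% of all promoters, and the same 7 genes held both. From the first base of TGANTCA to the first base of TATAAA were 39 bases in Mmp3, 34 in Mmp10, 45 in Mmp1a, 44 in Mmp1b and 19 in Mmp13. These matches describe the letters and not a site in use, and the neighbouring genes are related copies. Promoter entries were matched by symbol for 48 of the 78 members.

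Mmp3 (stromelysin-1), which cuts proteoglycans and laminin and activates other MMPs, fell. It read 2.01, 2.11 and 0.66 in controls 1 to 3 and -0.50, 0.15 and -0.51 in UVB mice 1 to 3. The groups did not overlap, although control 3 lay over 1 log2 below the other controls. The change was -1.88 ± 0.42 (limma adjusted p = 0.038), or 3.67-fold, at chr9:7455751-7455810 (mm9). The call was lost without control 1, control 2, UVB 1, UVB 2 or UVB 3 (adjusted p 0.061 to 0.119) and with no filter on dim probes (0.057), while without control 3 the difference was -2.34 (0.012).

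Mmp1b and Mmp1a are the rodent counterparts of human interstitial collagenase. Mmp1b read -1.76, -1.80 and -5.02 in controls and -4.36, -5.91 and -6.00 after UVB. Only controls 1 and 2 and UVB 1 were well above background, and control 3 lay within the UVB range. The change of -2.57 ± 0.96 did not pass (limma adjusted p = 0.129), while without control 3 it was -3.65 (adjusted p = 0.024). Of 15 alternatives that was the only 1 in which it passed, and normexp gave a difference of -0.55. Mmp1a read -3.34, -3.34 and -7.06 in controls and -5.51, -6.35 and -6.65 after UVB, was well above background on controls 1 and 2 alone, and was not tested. Mmp1a and Mmp1b are near copies, and whether each probe also bound RNA of the other gene was not tested.

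Mmp13 (collagenase-3) read -1.78, -1.98 and -4.21 in controls and -2.37, -2.36 and -1.62 after UVB, so that the UVB arrays lay between control 3 and the other controls or above them all. Its change was 0.54 ± 0.66 (limma adjusted p = 0.614), and without control 3 it was -0.23 (adjusted p = 0.647). Mmp10 (stromelysin-2) read -2.52, -2.19 and -4.00 in controls and -3.55, -2.84 and -3.31 after UVB, with a change of -0.33 ± 0.48 (limma adjusted p = 0.677). In both genes control 3 was the lowest of all 6 arrays. Without it the difference of Mmp10 was -0.88 (limma adjusted p = 0.107). Mmp8 (neutrophil collagenase) and Mmp12 (macrophage elastase) lay well above background on no array.

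**Figure D2:**
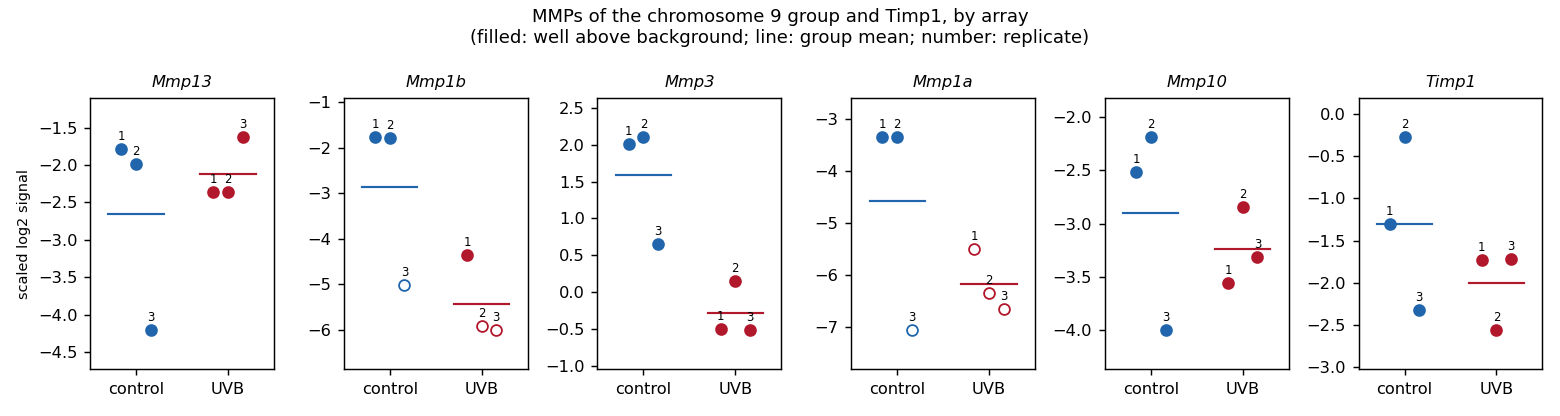
Scaled log2 signal (y axis, own range per panel) by array for 5 MMPs of the chromosome 9 group, in genome order, and Timp1, with filled points well above background, lines for group means and replicate numbers beside the points. Control 3 is the lowest control in every panel.

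Control 3 lay over 1 log2 below both other controls in 5 of the 48 tested members (10.4%), namely Mmp3, Mmp10, Mmp13, Mmp1b and Timp1, and in 1.13% of all targets. This pattern was noticed after the values were seen. Among the marker and related genes listed for this work, Acta1, Myh4, Tnnc2 and Tnnt3 of skeletal muscle, Lyz2 and Mrc1 of macrophages and S100a8 and S100a9 of the neutrophil list were low there by the same measure. Lyz2 and Mrc1 read -6.10 and -5.45 on control 3, under the lowest signal that counted as well above background on that array. The summed level of the 6 tested skeletal muscle markers of 10 was 3.46, 4.70 and 0.98 times the 75th percentile on controls 1 to 3 and 0.77 to 1.90 after UVB. The part of muscle or myeloid cells in the low values of control 3 was not tested. UVB 3 lay over 1 log2 below both other UVB arrays in 4 members (8.33%: Adam2, Adam26a, Mmp17 and Timp4) and above both in 2 (Adam18 and Adamts15). Of all targets 2.85% lay below and 2.32% above by that measure.

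Mmp11 (stromelysin-3), which is activated inside the cell by furin and cuts few matrix proteins itself, rose. It read -2.70, -3.10 and -3.90 on control arrays and -1.41, -2.03 and -1.79 on UVB arrays, with no overlap. The change was 1.49 ± 0.33 (limma adjusted p = 0.036), or 2.81-fold, at chr10:75386024-75386083 (mm9). Its other probe also rose, from -4.09, -4.12 and -4.49 to -2.61, -3.05 and -3.34 (1.24 ± 0.23, limma adjusted p = 0.023 over 33762 probes). The gene's call was lost without control 2, control 3, UVB 1, UVB 2 or UVB 3 (adjusted p 0.053 to 0.109) and with no filter on dim probes (0.055), and normexp gave a difference of 0.92, which passed.

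Of the membrane-type MMPs, which act at the cell surface, 1 of 4 tested genes fell and all 4 changes were negative, from -0.20 to -0.80. With normexp Mmp24 stood at 0.20 instead. Mmp15 (MT2-MMP) read -1.70, -1.58 and -1.55 in controls and -2.52, -2.24 and -2.46 after UVB. The UVB arrays lay below the controls by more than the whole spread of either group. The change was -0.80 ± 0.13 (limma adjusted p = 0.016), or 1.74-fold, at chr8:97897703-97897762 (mm9). The call was lost without control 2, control 3 or UVB 1 (adjusted p 0.050 to 0.074), and normexp gave -0.37, which passed. Mmp14 (MT1-MMP), the activator of pro-MMP2, read -1.19, -0.95 and -1.09 in controls and -1.10, -1.22 and -1.67 after UVB, with a change of -0.25 ± 0.18 (limma adjusted p = 0.379).

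Mmp23, a membrane-anchored MMP of unusual domain structure, rose from -4.27, -4.23 and -5.01 to -3.26, -3.45 and -3.23. The groups did not overlap, and control 3 was not well above background. The change was 1.19 ± 0.23 (limma adjusted p = 0.027), or 2.28-fold, at chr4:155025377-155025436 (mm9). The signal before scaling was low, 18.7, 27.7 and 15.0 in controls against 36.6, 28.7 and 32.1 after UVB. The call was lost without control 1, control 2, UVB 1, UVB 2 or UVB 3 (adjusted p 0.051 to 0.087), and normexp gave 0.60, which passed. For the 42 member probes that lay well above background on no array, the median difference after scaling was 0.54, with 35 positive, while their median signal before scaling lay between 2.96 and 3.75 on every array. The part of this offset in the rises of dim members was not tested. Mmp19 lay well above background on no array.

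All 4 TIMPs were tested, and none passed limma's test (also 0 of 4 at an unadjusted p under 0.05). Timp1, the inducible inhibitor, read -1.31, -0.27 and -2.32 in controls and -1.73, -2.56 and -1.72 after UVB, with a change of -0.71 ± 0.53 (limma adjusted p = 0.407). The controls alone spanned more than the difference between groups. Timp2, which takes part in pro-MMP2 activation, read 3.41, 3.45 and 2.92 against 2.56, 2.81 and 3.36, a change of -0.35 ± 0.25 (limma adjusted p = 0.392), while its other probe gave 0.14 ± 0.13. Timp3, the TIMP that is bound to the matrix and also blocks ADAM17, read 3.99, 3.49 and 3.33 against 2.65, 2.94 and 3.48, a change of -0.58 ± 0.27 (limma adjusted p = 0.197). In Timp2 and Timp3 alike, UVB 3 was the UVB array that reached into the control range. Timp4 read -3.07, -3.25 and -3.17 against -3.54, -3.42 and -5.17, without overlap but with a change of -0.88 ± 0.46 that did not pass (limma adjusted p = 0.246). The 4 changes were negative on the main scale, with quantile and median scaling and in the deposited table, whereas normexp gave 0.02 for Timp4.

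Of 21 tested ADAMs 1 rose and 2 fell, where 12.6% of all targets were called. The 8 tested somatic ADAMs with a protease site held 1 of each. Adam19 (meltrin beta), a sheddase of neuregulins, rose from -0.88, -1.17 and -0.75 to -0.22, -0.14 and 0.20, without overlap. The change was 0.88 ± 0.18 (limma adjusted p = 0.028), or 1.84-fold, at chr11:45960740-45960799 (mm9). It was lost without control 1, control 2, UVB 1, UVB 2 or UVB 3 (adjusted p 0.059 to 0.099). Adam12 (meltrin alpha), a sheddase of EGF-family ligands, fell from -0.72, -0.98 and -0.84 to -1.69, -1.45 and -1.50, also without overlap. Its change was -0.70 ± 0.13 (limma adjusted p = 0.024), or 1.63-fold. It was lost without control 1, control 2, control 3, UVB 1 or UVB 3 (adjusted p 0.051 to 0.079), and normexp gave -0.46, which passed. The Adam12 probe spans 2237 bases of genome at chr7:141079625-141081861 (mm9), and the other 2 Adam12 probes lay well above background on no array, so the change is known from 1 of 3 probes.

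Adam17, the sheddase of tumour necrosis factor, read -2.10, -2.12 and -2.12 in controls and -2.12, -2.03 and -2.16 after UVB. Its change was 0.01 ± 0.11 (limma adjusted p = 0.956), and its sign turned with quantile scaling, median scaling and in the deposited table (-0.09 in each). Adam10, which cuts Notch and E-cadherin, read 2.94, 2.92 and 2.88 against 3.10, 3.13 and 3.09. The UVB arrays were all higher, but by 0.20 ± 0.10, which did not pass (limma adjusted p = 0.252). Adam8, known from leukocytes, read 2.19, 2.32 and 2.43 against 1.87, 1.81 and 1.35. The groups did not overlap and the change of -0.64 ± 0.18 missed the threshold (limma adjusted p = 0.063). It passed with normexp (0.025), with a variance trend (0.029) and when only targets above background on all 6 arrays were tested (0.045). These make 4 of 16 alternatives, as the trend was fitted in more than 1 way. It passed in 0 of the 6 fits with 1 array left out (limma adjusted p 0.092 to 0.175), nor with quantile or median scaling.

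The 20 ADAMs known mainly from testis or epididymis held 11 tested genes, of which 10 did not pass. Adam3, a sperm surface protein, fell from -0.41, 0.14 and 0.19 to -0.83, -1.68 and -1.17. The groups did not overlap, and the change was -1.20 ± 0.27 (limma adjusted p = 0.038), or 2.29-fold, at chr8:25787707-25787766 (mm9). The gene's other probe lay well above background on no array, so the signal rests on 1 probe. The call was lost without control 2, control 3, UVB 1, UVB 2 or UVB 3 (adjusted p 0.057 to 0.128) and with no filter on dim probes (0.059). The probe of Adam26a also matches Adam26b and Adam34 and cannot be assigned to 1 gene.

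Of 10 tested ADAMTS genes 2 rose and none fell by limma's test (4 higher and 1 lower at an unadjusted p under 0.05), where 12.6% of all targets were called. Both belong to the proteoglycanases, which cut aggrecan and versican. Adamts1 read 0.88, 0.90 and 0.72 on control arrays and 1.81, 1.63 and 1.81 on UVB arrays. The gap between the groups was larger than the spread within either. The change was 0.92 ± 0.12 (limma adjusted p = 0.009), or 1.89-fold, at chr16:85795044-85795103 (mm9), and it passed in all 6 fits with 1 array left out (adjusted p 0.025 to 0.044).

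Adamts5 (aggrecanase-2) lies beside Adamts1 on chromosome 16 and was read by a pair of probes. The brighter probe, at chr16:85899450-85899509 (mm9), read -5.36, -4.79 and -4.51 in controls and -3.41, -3.69 and -4.10 after UVB, without overlap. Its change was 1.16 ± 0.27 (limma adjusted p = 0.043). This call was lost without control 1, control 2, control 3, UVB 1 or UVB 2 (adjusted p 0.052 to 0.120), with quantile (0.075) or median scaling (0.064), in the deposited table (0.075), with no filter (0.066) and with a variance trend (0.055), and normexp gave 0.60, which passed. The other probe, at chr16:85858402-85858461, read -6.79, -5.66 and -6.38 against -2.97, -3.58 and -3.23. It lay well above background on no control array and on all UVB arrays, so that its rise was at least 3.25-fold (the UVB mean over the lowest signal that counted as above background on the control arrays). This probe entered the test through the UVB arrays alone, so its adjusted p of 0.005 by limma is no separate support for the rise. The bound depends on the background treatment, as normexp gave 0.94 on the log2 scale for that probe.

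Adamts4 (aggrecanase-1) was not tested. A single probe of it was well above background on UVB 1 and UVB 3 and on no control array, reading -6.89, -6.14 and -6.81 in controls and -2.54, -4.30 and -2.36 after UVB. By the same bound its UVB mean was at least 3.71-fold higher, with no test, though UVB 2 was taken as read while not well above background. Mmp7, Adamts13 and Adamts19 were also above background on UVB 1 and UVB 3 alone. The same reckoning on the mean of the UVB arrays gave 1.38-fold, 1.46-fold and 2.03-fold. It sets no minimum for each array, as Mmp7 read -5.33 on UVB 2, within its control range of -5.59 to -4.80. Against these 4 probes seen on UVB arrays alone, 6 untested member probes were well above background on control arrays alone. They stood at -1.59 for Mmp1a, -1.46 for Adam22 and -1.32 for Mmp27. Further probes of Mmp28, Adam5 and Adamts2 stood at -1.08, -0.66 and -0.37. The tested probes of Mmp28 and Adam5 had the other sign, 0.46 and 0.23, and did not pass. None of these 6 control-only probes gave a bound. Adamts2, the procollagen N-proteinase, read -2.49, -2.01 and -3.10 against -1.19, -1.61 and -1.66, without overlap. Its change of 1.05 ± 0.29 missed the threshold (limma adjusted p = 0.067). It passed with normexp (0.017), with a variance trend (0.045) and among targets above background on all 6 arrays (0.048), in all 4 of 16 alternatives. Adamts2 passed in 0 of the 6 fits with 1 array left out (limma adjusted p 0.064 to 0.172), nor with quantile or median scaling.

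**Figure D3:**
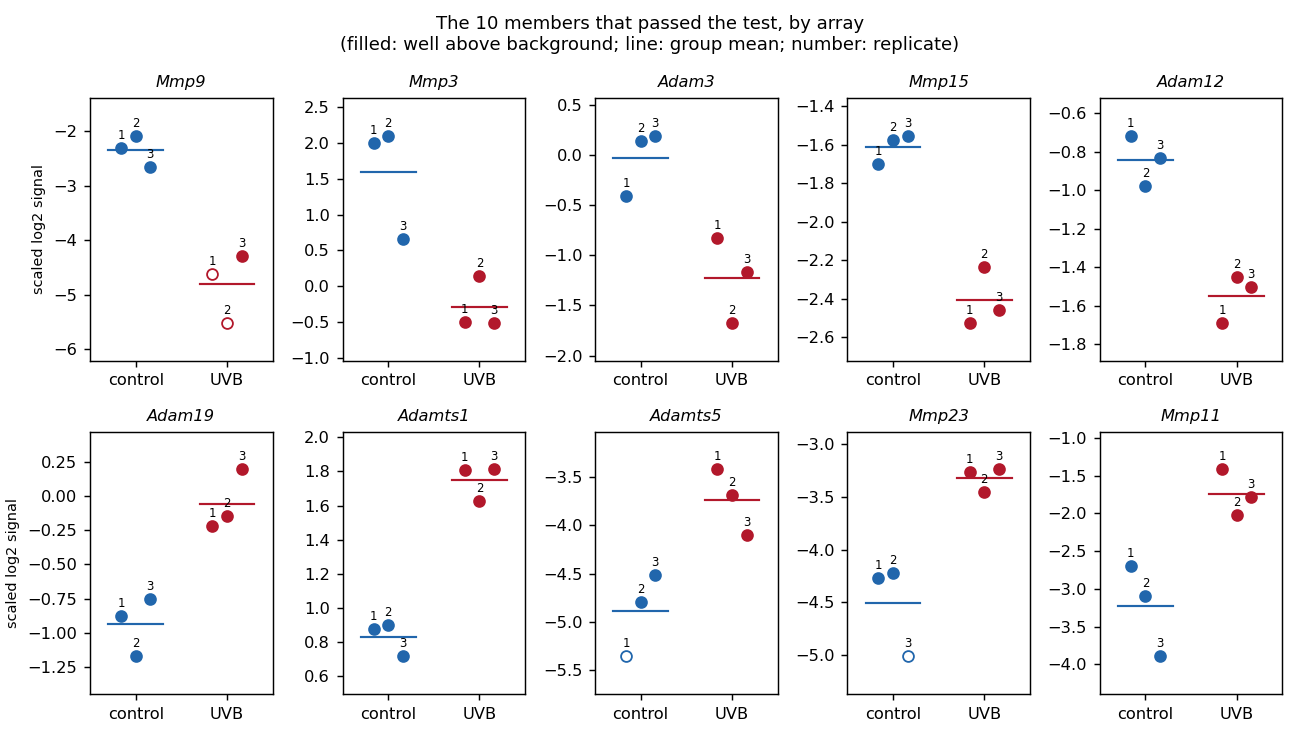
Scaled log2 signal (y axis, own range per panel) by array for the 10 members that passed, with filled points well above background, lines for group means and replicate numbers beside the points. The UVB arrays lie below all controls in the upper row (Mmp9, Mmp3, Adam3, Mmp15, Adam12) and above all controls in the lower row.

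Each member probe was also tested on its own among 33762 probes. Of 56 tested member probes 7 rose and 5 fell, where 11.2% of all probes were called, 5.08% higher and 6.10% lower. The calls were those of the same 10 genes, with a pair of probes for Mmp11 and for Adamts5, of which the dimmer Adamts5 probe passed the filter through the UVB arrays alone. Among the 8 genes with more than 1 tested probe, 3 (Mmp11, Adamts5 and Adamts14) had probes of 1 sign, and no gene had probes that passed in opposite directions. Without 1 array the counts lay between 2 and 3 rises and between 1 and 3 falls, each of the 6 arrays lowering both.

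**Figure D4:**
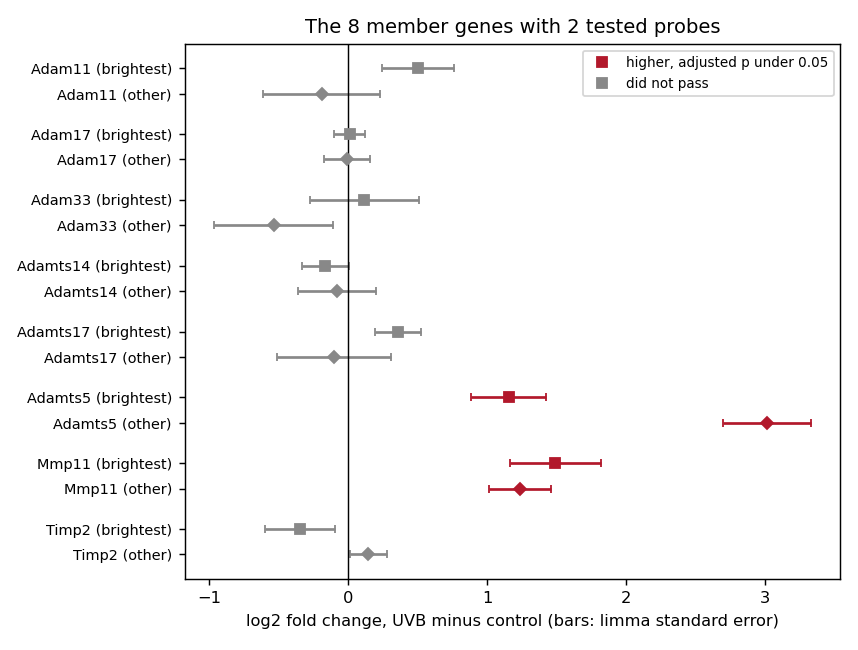
Log2 fold change, UVB minus control (x axis), of both tested probes of the 8 member genes that had more than 1, squares for the brightest probe and diamonds for the other, with bars for limma's standard error. Both probes of Mmp11 and Adamts5 are red, having passed, and no probe of the other 6 genes passed.

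Genes that act with these proteases were listed by role, and 12.6% of all targets is the share called to set beside each list (5.55% higher and 7.01% lower). Of 31 tested activators, inhibitors and related proteases (41 listed) 1 rose and 5 fell, with a median change of -0.15 beside -0.04 over all targets. Serpine2 (protease nexin-1), which blocks thrombin and plasminogen activators, lay well above background on no control array and on all UVB arrays. On the main scale this was a rise of at least 5.43-fold. The bound depends on the background treatment, as normexp gave a smaller rise, 1.31 on the log2 scale. Serpine2 entered the test through the UVB arrays alone, so its adjusted p of 0.001 by limma is no separate support for the rise. With no filter on dim probes the adjusted p was 0.002. Plaur, the urokinase receptor, fell by 1.15 ± 0.17 (limma adjusted p = 0.013), and Hpn (hepsin) by 0.79 ± 0.18 (limma adjusted p = 0.037). Both were lost with normexp (adjusted p = 0.092 and 0.096), and Hpn also with no filter on dim probes (0.062) and without any 1 of the 6 arrays (0.060 to 0.110).

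Of 20 tested matrix substrates (24 listed) 4 rose and 1 fell, with a median of -0.06. Col1a1 and Col1a2, the chains of type I collagen, rose by 2.35 ± 0.46 and 1.70 ± 0.37 (limma adjusted p = 0.026 and 0.034), and Col5a1 by 1.37 ± 0.30 (limma adjusted p = 0.036). Postn (periostin), a matrix protein of dermis and basement membrane zone, fell by 1.31 ± 0.16 (limma adjusted p = 0.008). Col5a1 stood at 0.86 with normexp and passed. The collagen calls were each lost without some arrays: Col1a1 without control 1 or any UVB array (adjusted p 0.055 to 0.086), Col1a2 in every such fit but that without control 2 (0.070 to 0.104), and Col5a1 in every one but that without UVB 2 (0.061 to 0.110). With no filter on dim probes Col1a2 (0.052) and Col5a1 (0.056) were lost too.

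Of 22 tested shed substrates of ADAM10 and ADAM17 (24 listed) 3 fell and none rose by limma's test (8 lower and 3 higher at an unadjusted p under 0.05), with a median of -0.09. For this list and the regulators below, the count lies near the 12.6% of all targets that were called. Tnf, the substrate for which ADAM17 is named, fell by 1.79 ± 0.15 (limma adjusted p = 0.003), and the desmosomal cadherin Dsg2 by 0.74 ± 0.13 (limma adjusted p = 0.018). Tnfrsf1b, a receptor of tumour necrosis factor, was lower too (-1.10 ± 0.15, limma adjusted p = 0.010). With normexp Tnf stood at -0.84 and passed, Tnfrsf1b was lost (-0.07, adjusted p = 0.717), and Dsg2 without any 1 control or UVB 1 (0.051 to 0.077). Of 22 tested regulators of MMP transcription (23 listed) 3 fell and none rose (6 lower and 3 higher unadjusted), with a median of -0.03. These were Tgfb1 (-0.96 ± 0.16, limma adjusted p = 0.016), Ccn1 (-1.53 ± 0.31, limma adjusted p = 0.028) and Egr1 (-0.88 ± 0.21, limma adjusted p = 0.042). All 7 listed AP-1 subunits were tested and 0 passed limma's test (3 at an unadjusted p under 0.05, Fosl1, Fosb and Fosl2). Fosl1 stood at -1.97 (limma adjusted p = 0.072) with the UVB arrays below all controls, and Fosl2 at 0.62 (0.073) with the UVB arrays above them. The others overlapped between groups and stood at -1.89 for Fosb, -0.91 for Fos, -0.63 for Junb, 0.21 for Jund and 0.42 for Jun. They are named because of the TGANTCA letters, a choice made after their values were seen. Of the regulators' calls, Tgfb1 was lost without control 2 or UVB 1 (0.052 to 0.070), Ccn1 without control 1 or any UVB array (0.055 to 0.092), and Egr1 in every such fit but that without control 2 (0.081 to 0.112) and with no filter on dim probes (0.068).

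**Figure D5:**
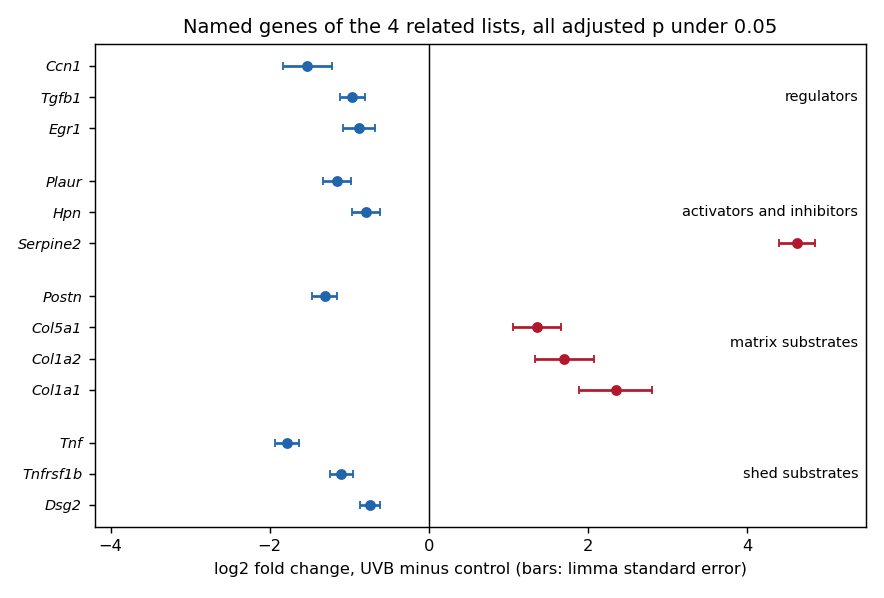
Log2 fold change, UVB minus control (x axis), of the named genes of the related lists, all of which passed, with bars for limma's standard error. Serpine2, whose fitted value is drawn although its controls were at background, Col1a1, Col1a2 and Col5a1 lie right of 0 and the other 9 genes left of it.

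Markers of several cell types moved between the groups beside these results, and their sums are given over tested markers in units of the 75th percentile. Counts of called markers stand beside 12.6% of all targets called. The Langerhans and dendritic cell list summed to between 61.5 and 62.9 in controls and 27.0 and 35.5 after UVB (6 of 7 tested, 3 lower, median change -0.88, Xcr1 above background on no array). The T cell list summed to between 47.0 and 52.3 against 18.7 and 24.9 (6 of 7, 4 lower and 1 higher, median -1.06). Both sums lay lower after UVB. Without Cd74, its brightest marker, the Langerhans and dendritic cell list summed to 19.0 to 24.4 in controls and 9.98 to 12.9 after UVB. Without Thy1, its brightest marker, the T cell list summed to 16.9 to 21.1 and 11.0 to 16.7, ranges that nearly met. The T cell marker that rose was Cd8a, which lay well above background on no control array and on all UVB arrays. Cd8a thus entered the test through the UVB arrays alone. Cd4 stood at 0.80 without passing (limma adjusted p = 0.089).

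The macrophage and monocyte list had no common direction: of 8 tested markers of 11, Csf1r and Adgre1 fell, Lyz2 rose, 4 changes were positive and 4 negative, and the median was 0.22. Lyz2 was dim, at -5.04, -5.10 and -6.10 in controls and -3.81, -3.64 and -4.39 after UVB. On controls 1 and 3 it lay under the lowest signal that counted as well above background. The sum of the list was 19.0 to 21.2 in controls and 6.66 to 9.63 after UVB, of which Csf1r alone made 17.4 to 19.0 and 5.15 to 7.72. Without Csf1r the sums overlapped, at 1.63 to 2.25 and 1.51 to 2.00. The list of neutrophils, a known source of Mmp9, summed to 127 to 162 and 194 to 281 (6 of 10 tested, none called by limma, 3 higher at an unadjusted p under 0.05, Ngp, Retnlg and Ltf above background on no array). Without Csf3r, its brightest marker, that list summed to 26.9 to 70.4 in controls and 82.3 to 157 after UVB, most of it S100a8 and S100a9.

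Fibroblast markers were mostly higher: of 6 tested of 8, the 3 collagens rose and Thy1, which the T cell list also holds, fell, with 5 positive and a median of 1.59. Their sum of 34.8 to 41.0 in controls and 24.6 to 32.2 after UVB was mostly Thy1, and without it the sum was 4.80 to 11.3 and 16.4 to 24.4. Hair follicle markers summed to 18.4 to 22.6 in controls and 289.9 to 1169 after UVB (11 of 11 tested, 10 higher). Melanocyte markers summed to 6.17 to 7.09 and 19.7 to 29.3 (7 of 7, 5 higher).

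Of 7 tested markers of differentiating keratinocytes 3 rose and all 7 were positive, with sums of 2286 to 2813 and 3753 to 4539.9 and a median of 0.76. Of 7 markers of basal keratinocytes 3 fell and none rose by limma's test (4 lower and 0 higher at an unadjusted p under 0.05), with overlapping sums of 1583 to 1977 and 1448 to 1637 and a median of -0.48. Sebaceous gland markers were lower, with 3 of 6 falling, all 6 negative and sums of 69.9 to 114 and 37.1 to 49.2. The part of these cell types in the changes of the members was not tested.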

How the data were processed

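RNA of 6 skins was labelled with Cy3 and read on 6 arrays. The deposited scanner files hold spot intensity from Agilent Feature Extraction 10.7.1.1 (per the submitters' processing notes), which per the file headers was background-subtracted, detrended and given surrogate values where dim. The deposited table of the authors holds log2 values with nearly the same sorted values in all 6 columns (median 4.96 in each), and each column correlated with its own array at r of 0.9986 or above. The sources used here do not state how they were made, and the table served as an alternative.

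From the processed intensity, control and outlier spots were left out, log2 was taken, each array's 75th percentile was subtracted and spots of a probe were averaged. Targets well above background on at least 3 of 6 arrays were tested with limma 3.58.1 (R 4.3.3, lmFit and eBayes) and Benjamini-Hochberg adjustment at 0.05, over 24354 targets (the brightest tested probe of each) or 33762 probes. The steps were tested on simulated data. Probes were named through RefSeq by accession (26582) or symbol (3094), and 26005 kept the array's name. Probe positions are those of the file headers' build, mm9, and exon or UTR positions were not analysed here. Promoter sequences are from RefSeq (GRCm38.p6). The number of arrays, 3 a group, limits the precision.

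Members named are those that passed by gene or by probe and 18 genes of known role. In related lists up to 3 passing genes of smallest adjusted p in each direction are named, except 1 gene that is not reported here. Members and lists were chosen with earlier results of these data known. The labels give replicate numbers without stating a pairing. Slide and scan time held 1 value each. Alternatives were quantile and median scaling, the deposited table, normexp (offset 50), other filters and variance models, the mean of a gene's probes, a replicate block and leaving out each array.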

Additional observations from a re-analysis of the deposited data

How the results depend on the processing

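All 10 member calls kept their sign in all 16 alternatives in which they were measured, and 2 of them (Mmp9 and Adamts1) passed in every fit with 1 array left out. Leaving out each array in turn gave 1 to 3 member genes higher, 1 to 3 lower, 2 to 3 member probes higher and 1 to 3 lower, against 5, 5, 7 and 5. Normexp gave 10 genes and 12 probes higher, and with no filter on dim probes 3 probes were lower. The cause was not tested. With the replicate number as a block, limma called 0 member genes higher and 0 lower (7 and 9 at an unadjusted p under 0.05). In that fit only 472 of all 24354 targets were called higher and 301 lower. Of the member probes 2 were called higher and 0 lower (9 and 9 unadjusted). The deviations of same-numbered mice correlated at -0.11, -0.26 and -0.08, and those of differently numbered mice at -0.03 to 0.14. As deviations were taken within groups of 3, these values cannot decide whether the numbers pair the mice. Median scaling moved the median of all targets from -0.04 to -0.14, normexp to 0.08 and no filter to 0.10, and that of the members to -0.13, 0.18 and 0.29. Signal close to background limits Mmp9, Mmp1b, Mmp23, Adamts4, Adamts5 and Timp4.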
